A study of Caenorhabditis elegans with 33 samples.

Results

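The genes described here are the F-box genes of the *C. elegans* families A and C, which carry the symbols fbxa and fbxc followed by a number. They were chosen by symbol and by a count rule, which asked for at least 10 counts in at least 3 of the 33 libraries. Of 208 listed genes with such symbols, 147 met the rule. These were 112 of 166 fbxa genes and 35 of 42 fbxc genes, out of 18811 genes in the files. Near the threshold, 7 members reached 10 counts in exactly 3 libraries, and 6 listed genes did so in exactly 2 and were left out. The expression test covered 146 members, all 112 fbxa genes and 34 of the fbxc genes, since fbxc-53 did not pass the filter on low counts.

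RNA came from whole bodies of synchronized adults of the wild-type worm strain N2. Worms ate 1 of 10 *Escherichia coli* mutants, named torY, yccU, crl, iaaA, purH, ycdC, ycgJ, yghZ, yjgU and ypdF, or BW25113, a laboratory strain of *E. coli* that served as the control diet. The yjgU group is named by its titles, while its treatment labels read yigU, so the identity of that mutant is uncertain. Each diet had 3 libraries, and the series title places the study among questions on gut microbe genes and social behaviour of the host. The sources used here do not say whether replicates are separate cultures, how old the adults were or how many animals were pooled. P-values therefore measure the spread between these libraries, which may be technical. In whole animals, fewer cells of a type and less RNA per cell cannot be told apart.

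An F-box is a short protein motif that binds a Skp1 protein, the adaptor of the SCF ubiquitin ligases. In such a ligase the F-box protein holds the substrate, cullin is the scaffold, and a RING protein recruits the enzyme that carries ubiquitin. Nematodes have many more F-box genes than mammals, most of them in families that grew by local duplication, and the substrates of nearly all fbxa and fbxc proteins are unknown. In the worm, fbxa-75 and fbxa-158 belong to the intracellular pathogen response, in which they work with the cullin cul-6.

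Most members were weakly expressed. On the deposited TPM scale, which corrects for gene length and so allows genes to be compared, the median of the mean levels was 0.777 TPM over the members. It was 0.792 TPM for fbxa and 0.777 TPM for fbxc, against 4.73 TPM for all genes that met the same count rule. Mean levels ran from 0.103 to 57.9 TPM, with 62 members at 1 TPM or more and 4 at 10 TPM or more. The first 2 genes held 29.4% and the first 6 held 43.2% of the summed TPM of the members. Only 44 members had 10 or more counts in all 33 libraries.

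The most abundant member was fbxa-215 (WBGene00012879, chromosome IV, 13665364 to 13666909, minus strand; WBcel235), with a mean of 57.9 TPM. Its level was 7.93, 57.3 and 13.8 TPM in torY libraries and 16.1, 35.0 and 20.9 TPM in yccU libraries, against 44.7, 30.2 and 53.98 TPM in BW25113 libraries. In ycdC libraries it was 115.1, 149 and 32.9 TPM, so the spread within a diet was as wide as the differences between diets. By mean, the diets ran from 24.0 ± 9.82 TPM in yccU to 98.9 ± 59.5 TPM in ycdC (SD, n = 3 each).

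The second was fbxc-50 (WBGene00015912, II, 3246316 to 3248123, minus strand), with a mean of 35.4 TPM. It stood at 19.4, 20.9 and 17.1 TPM in torY libraries, against 37.1, 51.8 and 38.9 TPM in BW25113 libraries. The 3 torY libraries lay below the 3 controls, but the difference did not pass the test across all genes (log2 fold change -1.29, SE 0.59, edgeR adjusted p = 0.116). Next by mean level came fbxc-44 (II, 4236504 to 4237751; 14.6 TPM), fbxa-101 (I, 12958640 to 12959932; 12.5 TPM), fbxc-51 (II, 868814 to 871699; 8.47 TPM) and fbxc-32 (II, 946485 to 948191; 8.06 TPM). All counts of fbxc-44 were non-whole numbers, so its level depends on how the authors divided reads between genes. The family thus had a few abundant genes and a long run of scarce ones.

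**Figure D1:**
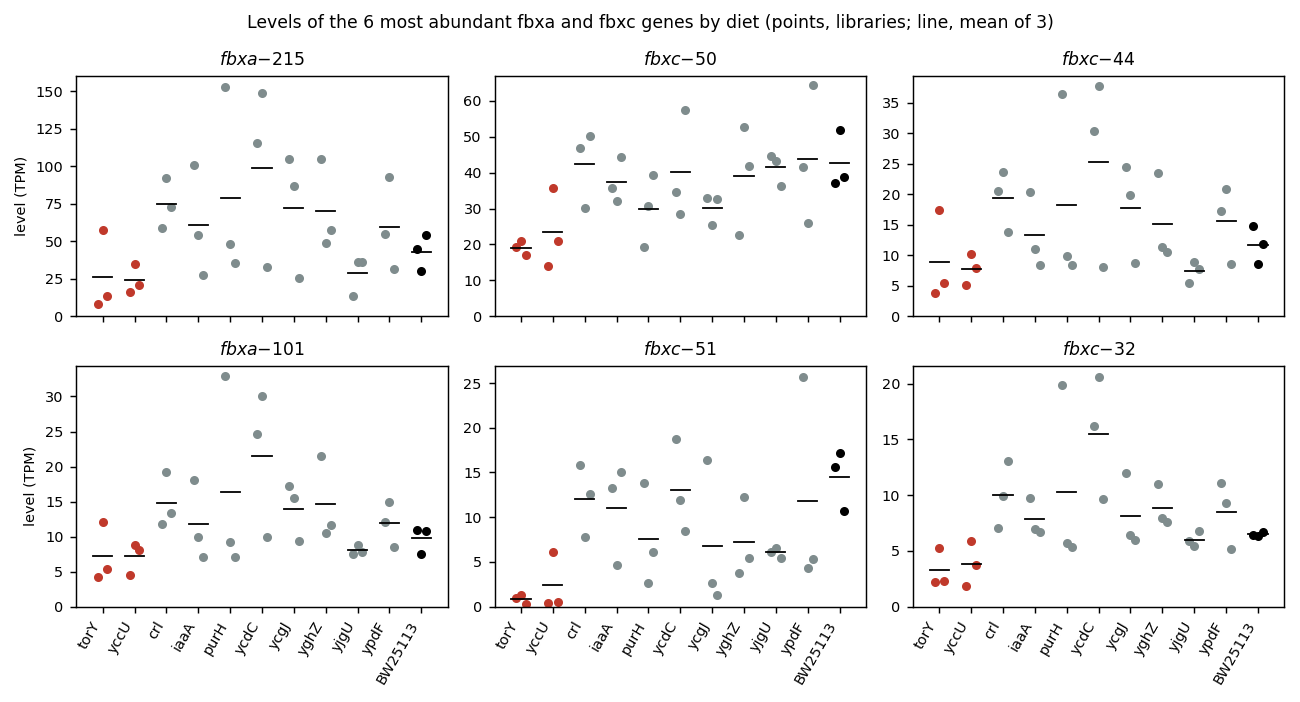
Level in TPM (vertical axes, linear, starting at 0) of the 6 members with the highest means in the 11 diets (horizontal axes). Points are libraries and lines are means of 3. The purH and ycdC diets hold libraries far above the others of the same diet, as for fbxa-215 at 153 TPM in purH replicate 1.

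Library totals lay between 20.5 and 22.7 (in units of 1e6 expected counts), and members took 139 to 1233 counts per 1e6. Some libraries stood apart in many members at once: of the 147 members, 43 had their highest CPM (counts per 1e6 after TMM scaling of libraries) in ycdC replicate 2 and 42 in purH replicate 1. The lowest CPM was in torY replicate 1 for 21 members and in torY replicate 3 for 17. Summed member TPM was 770 in purH replicate 1 and 258 and 200 in the other purH libraries, against 281, 234 and 268 in BW25113. Some marker lists, but not all, were low in these 2 libraries. In purH replicate 1 the oocyte, intestine and sperm lists stood at -1.90, -2.13 and -2.77 (mean log2 CPM, centred on the mean of the 33 libraries). Muscle markers were at -1.92 and molting markers at -0.72 there, but embryo markers were at 0.69 and neuron markers at 0.00. In ycdC replicate 2 the oocyte, intestine and sperm values were -1.14, -1.49 and -0.69. Sperm markers were at -3.01 in ypdF replicate 1, where 4 members had their highest CPM. The part of these markers in the members' levels was not tested.

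**Figure D2:**
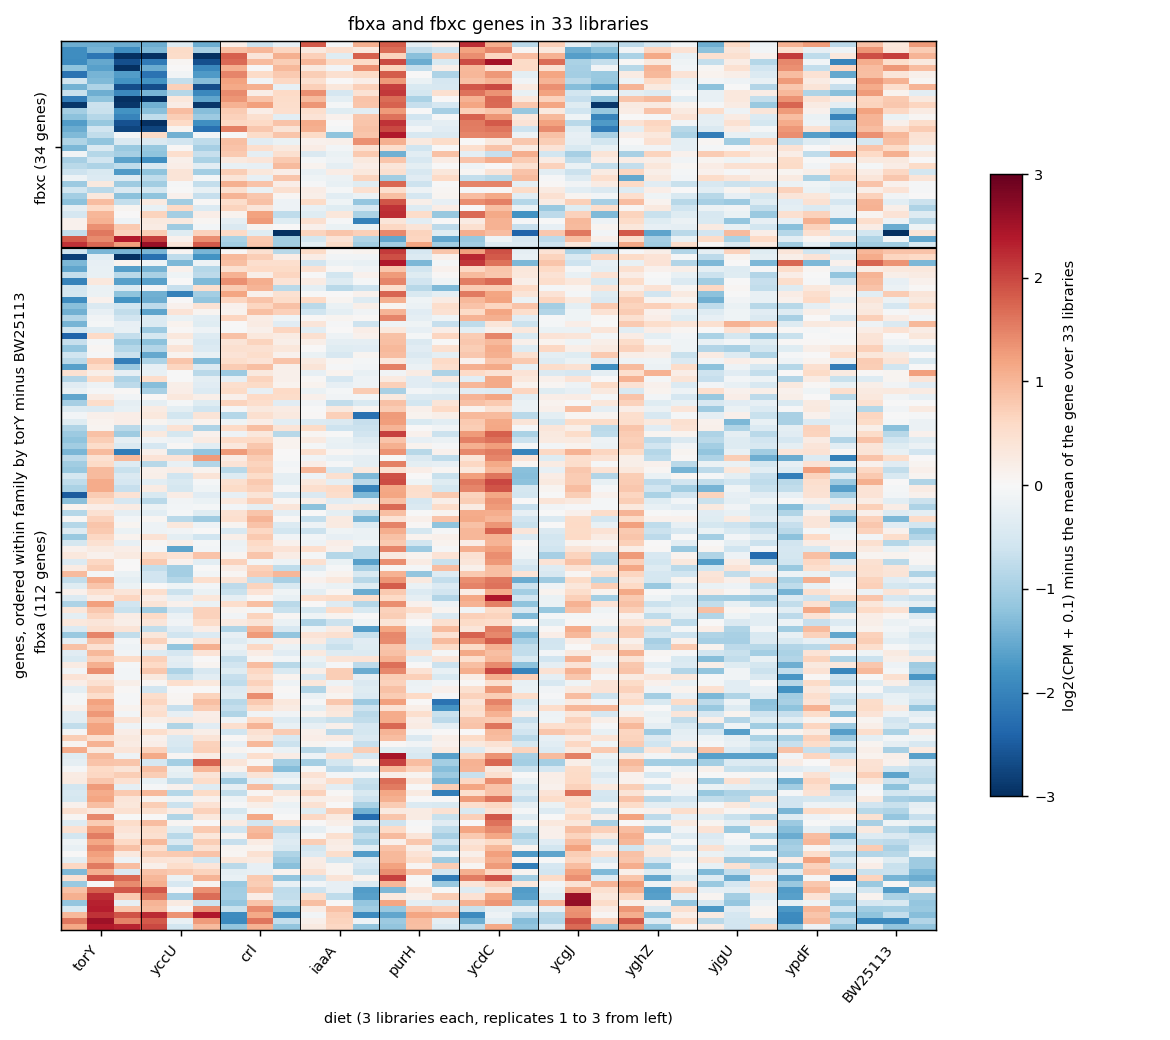
Colours show log2(CPM + 0.1) of 146 tested members (rows, fbxc above fbxa, ordered by torY minus BW25113) minus the mean of each gene, in 33 libraries (columns, by diet), limited to 3 log2 units either way. The upper fbxc rows are low in the torY libraries and in yccU replicates 1 and 3, and whole columns are high in purH replicate 1 and in ycdC replicates 1 and 2.

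The torY diet was compared with BW25113 to ask which of these genes differ between worms on the mutant and worms on its control. Of the 146 members tested, 16 were called at an adjusted p under 0.05, with 13 lower and 3 higher in torY. Over all 14696 genes, 14.9% were called, 5.26% lower and 9.66% higher. The calls lay mostly in fbxc, where 10 of 34 genes fell and 2 rose, or 35.3% of those tested. In fbxa, 3 of 112 genes fell and 1 rose, or 3.57%. The median log2 fold change was -1.65 in fbxc and 0.24 in fbxa, against 0.01 over all genes, and the value was below 0 for 28 of 34 fbxc genes, 41 of 112 fbxa genes and 49.7% of all genes. Unadjusted p was under 0.05 for 73.5% of fbxc genes, 17.0% of fbxa genes and 36.5% of all genes. The 3 torY libraries lay below the 3 BW25113 libraries for 22 of 34 fbxc genes (64.7%), 10 of 112 fbxa genes (8.93%) and 21.7% of all genes. They lay above them for 2 fbxc genes, 18 fbxa genes (16.1%) and 25.5% of all genes. The fbxa median was -0.15 without torY replicate 2. The difference between the families was not tested.

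The calls rested on few libraries. None was left without BW25113 replicate 2 or torY replicate 3, where all genes had 0 and 153 calls and 33 and 30 members were at an unadjusted p under 0.05, and 16 were left without torY replicate 2, of which 11 were shared. The count was 4 and 6 without BW25113 replicates 1 and 3, 5 without torY replicate 1, 8 by limma on TPM and 25 by DESeq2. Over all genes the shares called were 4.98%, 3.86%, 3.56%, 10.5% and 17.9% in the same order, and 14.2% without torY replicate 2. With the level of the molting markers as a covariate, edgeR called 0 members and 0 of all genes, with 6 members and 648 genes at an unadjusted p under 0.05, and the fbxc median was -1.19. The molting level lay higher in every torY library than in every BW25113 library, so this fit cannot tell diet and molting level apart.

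Most of the fallen fbxc genes were neighbours at the left end of chromosome II. The most abundant was fbxc-51 (WBGene00021576, plus strand), with 2.55, 2.05 and 0.570 CPM in torY libraries, against 36.3, 40.1 and 19.3 CPM in BW25113 libraries. Every torY library was far below every control, and the log2 fold change was -4.22 (SE 1.01, edgeR adjusted p = 0.0149). The gene with the lowest p was fbxc-39 (WBGene00018456, II, 988737 to 991146, plus strand), with 0.345, 0.232 and 0 CPM in torY libraries, against 1.86, 2.45 and 1.86 CPM in BW25113 libraries. Its log2 fold change was -3.46 (SE 0.81, edgeR adjusted p = 0.0142). Both genes had 1 torY library, replicate 3, lowest of all.

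Smaller falls, with torY libraries still clear of the controls, were seen in 2 abundant neighbours. For fbxc-36 (WBGene00019918, II, 940983 to 943167) the libraries read 1.24, 2.44 and 1.49 CPM in torY, against 6.00, 5.03 and 3.10 CPM in BW25113 (log2 fold change -1.44, SE 0.37, edgeR adjusted p = 0.0199). For fbxc-32 (WBGene00016303) they read 4.77, 6.38 and 3.07 CPM in torY, against 11.8, 11.8 and 9.61 CPM in BW25113 (-1.22, SE 0.39, edgeR adjusted p = 0.0373). Both are among the members with 10 or more counts in every library.

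The other called genes of that stretch were scarce. The fbxc-28 gene (WBGene00019922, II, 923821 to 925196) had 0.207, 0.464 and 0 CPM in torY libraries, against 1.92, 2.15 and 1.498 CPM in BW25113 libraries (log2 fold change -2.99, SE 0.92, edgeR adjusted p = 0.0343). In fbxc-24 (WBGene00019927, II, 907448 to 909654) the torY libraries held 0.0691, 0.116 and 0 CPM, against 1.22, 0.797 and 0.672 CPM in BW25113 (-3.73, SE 1.25, edgeR adjusted p = 0.0451). Both fell with no overlap between the groups. In fbxc-14 (WBGene00016298, II, 974299 to 975545) the torY libraries held 0.138, 0.0387 and 0 CPM, against 0.758, 0.613 and 0.258 CPM in BW25113 (-3.29, SE 0.97, edgeR adjusted p = 0.0306). That is 3 counts in all torY libraries and 28 in all BW25113 libraries, so the size of this fall is known only roughly.

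Chained at gaps of up to 50 kb, a distance chosen after the values were seen, the 147 members fell into 67 loci, of which 41 held a single member and 4 held 5 or more. The only one of these 4 made of fbxc genes lies on chromosome II, 868814 to 993179 (124.4 kb), and holds 14 of them. In torY all 14 had a log2 fold change below 0, with 7 called lower, a median of -2.96 and a range of -4.22 to -1.03. In yccU all 14 were below 0 as well, with a median of -1.70 and 0 called. The torY and yccU comparisons share the BW25113 libraries, so the second is not an independent repeat of the first. Of 10 other genes tested inside the locus, 1 rose and 2 fell in torY and the median was -0.61. Neighbouring copies can share reads, and no source used here states how such reads were counted. Of the 16 members called in torY, 13 had whole counts in all libraries. Whether the copies of the run fell separately or through reads that they share was not tested.

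**Figure D3:**
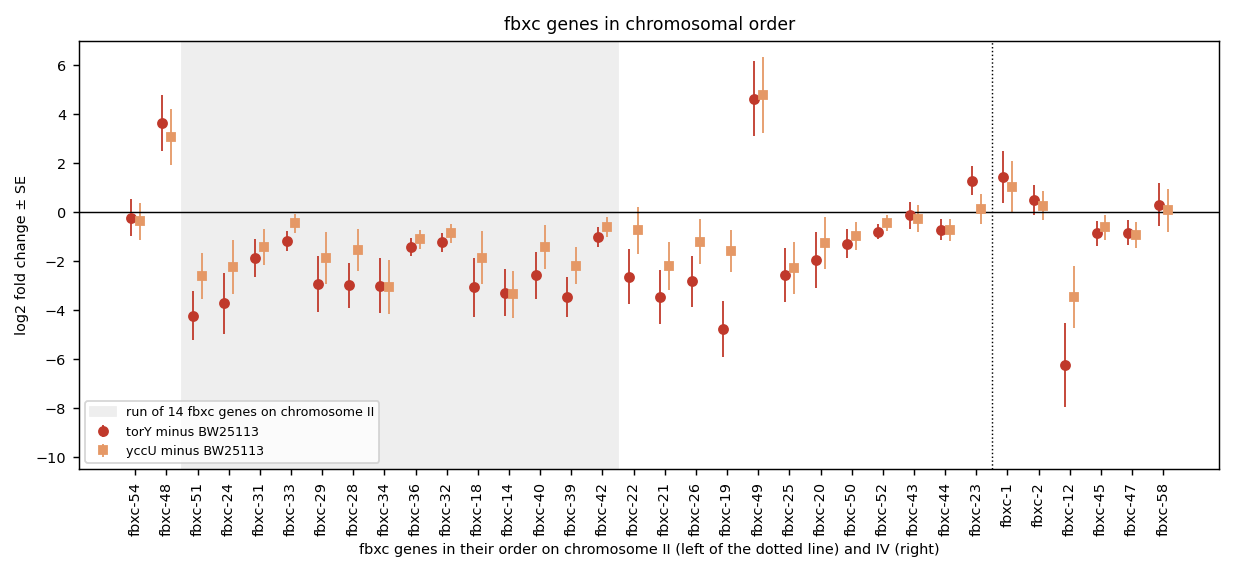
Log2 fold change with its SE (vertical axis) of the 34 tested fbxc genes, torY minus BW25113 (circles) and yccU minus BW25113 (squares), in their order along chromosomes II and IV (horizontal axis, not to scale). All 14 genes of the shaded run lie below 0 in both comparisons, while fbxc-48 and fbxc-49 lie above it.

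The other 3 loci of 5 or more members are made of fbxa genes, and their difference from the fbxc run was not tested. On chromosome III, 20 fbxa genes between 1236015 and 1384252 had 0 calls in torY and a median of 0.38. The 8 fbxa genes between 933422 and 963833 had 0 calls and a median of 0.21, and the 7 between 2224672 and 2314035 had 0 calls and a median of 0.33. By chromosome, 11 of the 29 fbxc members on II and 1 of the 6 on IV were called. The 112 fbxa members were spread over 6 chromosomes, with 41 on III and 45 on V, and their 4 calls lay on I, IV, V and X. Gene models were alike in size, with a median coding length of 948 bases in fbxa (n = 111) and 1077 bases in fbxc (n = 33).

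Outside the run of 14, 3 more fbxc genes fell. The fbxc-19 gene (WBGene00020361, II, 1820479 to 1823039, plus strand) had 0, 0.0387 and 0 CPM in torY libraries, against 0.816, 0.368 and 0.517 CPM in BW25113 libraries (log2 fold change -4.78, SE 1.15, edgeR adjusted p = 0.0149). This is 1 count in torY and 30 in BW25113, and its exons overlap genes on the other strand, among them fbxa-3, whose reads cannot be told apart because the strandedness of the libraries is not given in the sources used here. In fbxc-21 (WBGene00019042, II, 1691513 to 1692927) the torY libraries held 0, 0.0773 and 0.0438 CPM, against 0.758, 0.490 and 0.413 CPM in BW25113 (-3.45, SE 1.10, edgeR adjusted p = 0.0391). The third was fbxc-12 (WBGene00045298, IV, 905263 to 907044, plus strand), the only called fbxc gene outside chromosome II. It had 0 counts in all torY libraries and 7, 4 and 11 counts in BW25113 libraries, so it was at least 8.77-fold lower in torY, computed against a floor of 3 counts over the group (edgeR adjusted p = 0.0246). Its counts were non-whole in 10 libraries, and floors cover counting error only.

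The 3 members that rose were scarce genes that BW25113 libraries hardly showed. The fbxa-202 gene (WBGene00020890, V, 6327280 to 6328865, plus strand) had 1.04, 2.09 and 0.964 CPM in torY libraries, against 0, 0 and 0.103 CPM in BW25113 libraries (log2 fold change 5.01, SE 1.40, edgeR adjusted p = 0.0256). It was counted 91 times in torY and 2 times in BW25113. In fbxc-48 (WBGene00015615, II, 739553 to 740908) the torY libraries held 0.967, 0.696 and 1.45 CPM, against 0.0583, 0.184 and 0 CPM in BW25113 (3.65, SE 1.14, edgeR adjusted p = 0.0367). In fbxc-49 (WBGene00020534, II, 2084129 to 2085213) they held 0.829, 0.580 and 0.394 CPM, against 0, 0 and 0.0517 CPM in BW25113 (4.64, SE 1.55, edgeR adjusted p = 0.0444). These 2 fbxc genes met the count rule largely through the diets in which they were high: 5 of the 8 libraries in which fbxc-48 reached 10 counts, and 4 of the 5 for fbxc-49, were torY or yccU libraries.

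Of the fbxa genes that fell, fbxa-170 (WBGene00016486, X, 1676205 to 1678121, minus strand) was the most abundant, at 1.93, 5.07 and 1.80 CPM in torY libraries, against 6.88, 7.42 and 7.39 CPM in BW25113 libraries. Its log2 fold change was -1.29 (SE 0.40, edgeR adjusted p = 0.0367). The fbxa-83 gene (WBGene00013453, IV, 14323237 to 14326383, minus strand) stood at 0.207, 1.62 and 0.175 CPM in torY libraries, against 4.49, 3.25 and 3.15 CPM in BW25113 libraries (-2.38, SE 0.69, edgeR adjusted p = 0.0290). In both, torY replicate 2 lay closest to the controls. The fbxa-103 gene (WBGene00008612, I, 14287826 to 14295954, minus strand) had 1 count in torY and 20 in BW25113 (-4.12, SE 1.28, edgeR adjusted p = 0.0360), and it reached 10 counts in only 3 libraries.

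**Figure D4:**
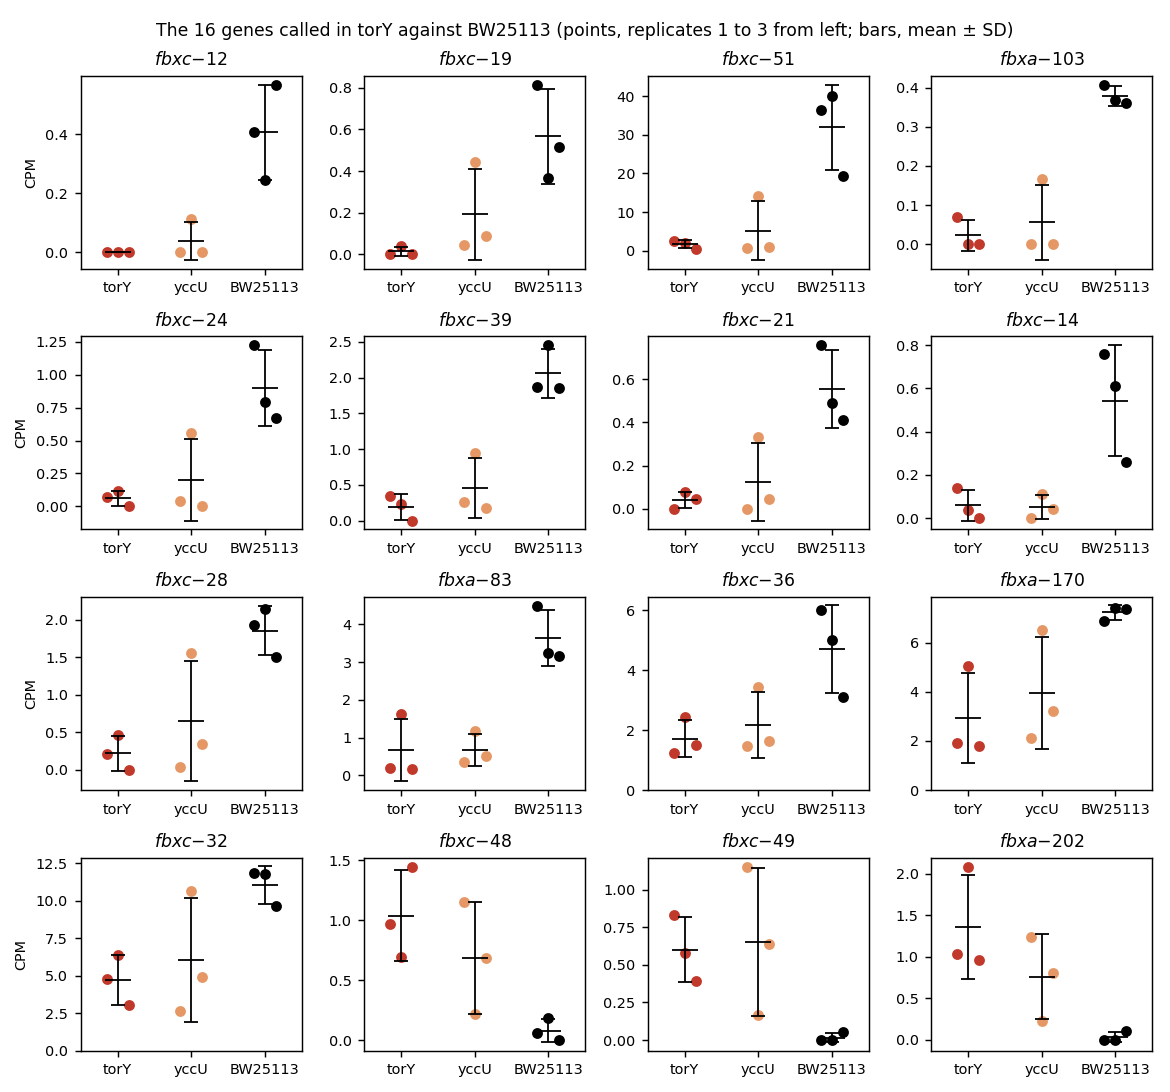
CPM (vertical axes, linear) of the 16 members called in torY against BW25113, in torY, yccU and BW25113 (horizontal axes), with each library as a point and mean ± SD as bars (n = 3). The torY points do not overlap the BW25113 points in any panel, and yccU replicate 2 lies closer to BW25113 than the other yccU libraries in each.

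In yccU, 0 members were called, where 2.62% of all genes were. By an unadjusted p under 0.05 there were 25 members (17.1%, against 26.9% of all genes). Of these, 11 were in fbxc (32.4%) and 14 in fbxa (12.5%). DESeq2 called 9 members and 9.64% of all genes. The fbxc median was -1.05, with 28 of 34 genes below 0 (50.5% of all genes), and the fbxa median was 0.05, against -0.01 over all genes. The lowest p belonged to fbxa-83, at 0.355, 1.17 and 0.513 CPM in yccU libraries, against 4.49, 3.25 and 3.15 CPM in BW25113 libraries (log2 fold change -2.43, SE 0.70, edgeR adjusted p = 0.0535). Its groups did not overlap. The most abundant called gene of torY, fbxc-51, had 0.710, 14.0 and 0.940 CPM in yccU libraries, so that replicate 2 alone stood near the controls. Without yccU replicate 2, edgeR called 23 members, 17 of them fbxc, with 19 lower and 4 higher, and 14.5% of all genes. In that library the molting markers were also at -0.17, against 2.43 and 2.29 in the other 2 yccU libraries. With all 3 yccU libraries and the molting level as a covariate, edgeR called 0 members and 0 of all genes. An unadjusted p under 0.05 was then reached by 7 members and 807 genes, against 25 members and 3952 genes without the covariate, and the fbxc median was -0.93. Apart from replicate 2, the molting level went with the diet here too, so this fit cannot separate them.

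Worms on torY were also set against worms on yccU, to test the difference between the mutants themselves. No member was called, nor was any of the 14696 genes, and 62 genes (0.422%) had an unadjusted p under 0.05, among them 1 member. Among members the lowest p was for fbxc-19, with 1 count in torY libraries and 11 in yccU libraries (log2 fold change -3.17, SE 1.23, edgeR adjusted p = 1.00). A p that misses the threshold does not show that the 2 diets act alike.

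In the other 8 mutants, edgeR called 0 members and 0.0% of all genes in each comparison with BW25113. DESeq2 also called 0 members, and fits of the 6 libraries alone called 1, an fbxc gene in yjgU, where 4.44% of all genes were called. An unadjusted p under 0.05 was reached in crl by 1 member (1.02% of all genes), in iaaA by 1 (1.12%), in purH by 2 (7.17%) and in ycdC by 12 (4.64%). It was reached in ycgJ by 7 (4.74%), in yghZ by 2 (6.71%), in yjgU by 6 (6.49%) and in ypdF by 1 (1.32%). As shares of the 146 members these were 0.685% to 8.22%. The share was above that of all genes in ycdC (8.22%), close to it in ycgJ (4.79%) and below it in the rest. The lowest unadjusted p in crl, iaaA, ycgJ and yghZ all belonged to fbxa-202, the gene that rose in torY. It averaged 0.390 ± 0.566 CPM in crl, 0.351 ± 0.135 CPM in iaaA, 0.646 ± 0.618 CPM in ycgJ and 0.640 ± 0.553 CPM in yghZ, against 0.0345 ± 0.0597 CPM in BW25113 (SD, n = 3 each). The 4 comparisons share the same controls, 2 of which held no count of the gene. In the other diets the leading members were fbxa-88 in purH (log2 fold change 3.03, SE 1.17, edgeR adjusted p = 0.572), fbxa-157 in ycdC (1.54, SE 0.57, edgeR adjusted p = 0.744), fbxa-120 in yjgU (-1.21, SE 0.44, edgeR adjusted p = 0.735) and fbxa-118 in ypdF (-2.27, SE 0.80, edgeR adjusted p = 1.00). None of these passed the test.

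Values of fbxc below those of BW25113 were not confined to torY and yccU. In yjgU 29 of 34 fbxc genes had a log2 fold change below 0, against 55.7% of all genes, with a median of -0.65 (-0.08 over all genes). The 3 yjgU libraries lay below the 3 BW25113 libraries for 10 of the 34 (29.4%), against 10.2% of all genes. The fbxa genes were mostly lower there too, with 84 of 112 below 0 and a median of -0.38. In ycgJ 29 of 34 fbxc genes were below 0, against 47.2% of all genes, with a median of -0.41 (0.03 over all genes). The fbxc median was -0.35 in yghZ and -0.15 in iaaA, against 0.00 and 0.01 over all genes. The count below 0 was 24 in ypdF (47.3% of all genes), with a median of -0.27 (0.02 over all genes). It was 12 in crl (48.9%), 12 in purH (39.0%) and 7 in ycdC (45.0%), with medians of 0.14, 0.10 and 0.47. Over all genes the medians in crl, purH and ycdC were 0.01, 0.18 and 0.09. None of these fbxc genes was called, and whether the fbxc shift in torY or yccU differed from that in these 8 mutants was not tested. All of these comparisons share the BW25113 libraries, so they are not independent of each other. Mean fbxc levels in those controls were 0.64, 0.27 and 0.14 (centred log2 CPM), all above the mean of the 33 libraries.

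The ycdC diet had the widest shift of fbxa without a call. There 108 of 112 fbxa genes had a log2 fold change above 0 and the median was 0.78, against 0.09 over all genes, of which 45.0% were below 0. Without ycdC replicate 2 the median was 0.42. The value followed 2 of the 3 libraries: the mean fbxa level was 0.66, 1.12 and -0.43 in ycdC replicates 1, 2 and 3, against 0.24, -0.29 and -0.36 in BW25113 (centred log2 CPM). The intestine markers stood at -0.10, -1.49 and 0.45 in those ycdC libraries, against 0.17, 0.54 and 0.62 in BW25113. Their part in the shift was not tested. In purH the fbxa median was 0.54, against 0.18 over all genes, and the fbxa median was 0.05 without replicate 1.

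An F test asked whether a gene differs at all among the 11 diets. It called 0 members, against 3.16% of all genes. An unadjusted p under 0.05 was reached by 27 members (18.5%), with 41.2% of fbxc, 11.6% of fbxa and 20.9% of all genes. DESeq2 called 20 members and 12.4% of all genes. The lowest p belonged to fbxa-83 (F = 4.08, edgeR adjusted p = 0.0513), at 0.650 TPM in torY, 0.530 TPM in yccU and 7.44 TPM in ycdC, against 2.64 TPM in BW25113 by diet mean. Next came fbxc-32 (edgeR adjusted p = 0.0832), at 3.26 TPM in torY, 3.82 TPM in yccU and 15.5 TPM in ycdC, against 6.50 TPM in BW25113. In both, torY and yccU had the lowest diet means and ycdC the highest. These TPM are not TMM-scaled, while the F test used TMM-scaled counts. By CPM, fbxa-83 averaged 6.45 ± 4.29 in ycdC and 3.63 ± 0.75 in BW25113, and the groups overlapped. Its counts were 283, 262 and 31 in ycdC replicates 1, 2 and 3. For fbxc-32 the means were 18.0 ± 2.11 CPM in ycdC and 11.1 ± 1.26 CPM in BW25113 (SD, n = 3 each), without overlap. Without yccU replicate 2, purH replicate 2 or purH replicate 1, the test called 9, 5 and 3 members, against 6.65%, 6.19% and 4.89% of all genes. It called 0 or 1 member without any other library. The next 8 by p were fbxa-181, fbxc-12, fbxc-36, fbxc-49, fbxa-120, fbxa-210, fbxc-19 and fbxa-103, with edgeR adjusted p between 0.0886 and 0.137. Counts of fbxa-210 were non-whole in all 33 libraries.

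Partners of the F-box proteins were read from a list of the SCF core and its activators, the Skp1-related adaptors, cullin, RING proteins, the NEDD8 pathway and the COP9 signalosome. Over all genes, 9.66% were called higher in torY and 5.26% lower, with a median of 0.01. Without BW25113 replicate 2, 0 genes were called, so the calls below also rest on that library. Of 26 genes tested on this list, 0 rose and 3 fell, with a median of -0.67. The 3 were skr-17, skr-12 and skr-21, which code for Skp1-related adaptors. They averaged 15.0 ± 3.47, 1.34 ± 0.655 and 1.08 ± 0.110 CPM in torY, against 28.0 ± 2.57, 6.45 ± 2.11 and 4.69 ± 2.36 CPM in BW25113 (SD, n = 3 each; edgeR adjusted p = 0.0256, 0.0377 and 0.0398). By contrast skr-1, the main Skp1 gene of the worm, was at 110 ± 15.0 CPM in torY and 103 ± 12.6 CPM in BW25113 (edgeR adjusted p = 0.761). Of 10 F-box genes of other families, 1 fell, prom-1, which acts in meiotic chromosome pairing in the germ line, at 11.4 ± 1.72 CPM in torY and 28.1 ± 10.1 CPM in BW25113 (SD, n = 3 each; edgeR adjusted p = 0.0367).

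The ligase of the intracellular pathogen response gave no call in torY among 6 genes tested, against 14.9% of all genes, with a median of 1.04. The member fbxa-158 (WBGene00015602, II, 1619814 to 1621280, minus strand) had 0.483, 1.47 and 1.31 CPM in torY libraries, against 0.583, 0.0613 and 0.0517 CPM in BW25113 libraries. One control overlapped the torY range, and the difference did not pass (log2 fold change 2.23, SE 1.13, edgeR adjusted p = 0.151). The cullin cul-6 was at 1.06 ± 0.859 CPM in torY and 0.819 ± 0.289 CPM in BW25113 (SD, n = 3 each; edgeR adjusted p = 0.749). The other partner, fbxa-75, did not meet the count rule.

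The fbxb genes, the third large family of this kind, gave a larger share of calls. In torY, 48 of 73 fbxb genes tested (65.8%) fell, against 5.26% of all genes, and 0 rose. The median was -3.44, against the fbxc median of -1.65. That difference was not tested. Without BW25113 replicate 2, and with the molting covariate, 0 of all genes were called in torY, so 0 fbxb genes were called there. The fbxb count was not repeated under the other alternatives.

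Stage and tissue markers moved in the same comparison, where 9.66% of all genes were called higher and 5.26% lower. Without BW25113 replicate 2 it called 0 genes, so the marker calls below also rest on that library. In torY 13 of 30 larval and molting markers rose and 0 fell, and the summed level of the list was 1732 to 5736 CPM in torY libraries, against 443 to 1866 CPM in BW25113 libraries. Of 16 embryo markers tested, 0 rose and 6 fell, with sums of 113.1 to 148 CPM in torY libraries, against 291 to 308 CPM in BW25113 libraries. Oocyte markers had 3 of 20 lower (9722 to 16878 CPM in torY, against 25307 to 32180 CPM in BW25113), and sperm markers had 2 of 13 higher (2408 to 4060 CPM in torY, against 381 to 664 CPM in BW25113). No intestine, muscle or neuron marker passed, although intestine sums were 28857 to 55415 CPM in torY, against 77108 to 102180 CPM in BW25113. No marker in the files was at 0 in all 3 torY libraries, and the embryo gene med-1 was at 0 in all 3 BW25113 libraries.

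The mean fbxc level per library was -0.94, -0.44 and -1.30 in torY, against 0.64, 0.27 and 0.14 in BW25113 (centred log2 CPM). Embryo markers stood at -1.09, -0.83 and -1.10 in the same torY libraries, against 0.79, 0.72 and 0.38 in BW25113. For fbxa the values were -0.44, 0.71 and -0.08 in torY, against 0.24, -0.29 and -0.36 in BW25113, so those groups overlapped. In yccU, replicate 2 had the highest fbxc level (0.02, against -1.03 and -0.96 in the other 2) and the highest embryo marker level (-0.06, against -1.05 and -0.99). The part of the stage and germ line markers in the fbxc result was not tested. The covariate fit given above does not test it. The molting level was 1.32 to 2.64 in torY libraries, against -0.99 to 0.03 in BW25113 libraries, so it cannot be told apart from the diet.

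**Figure D5:**
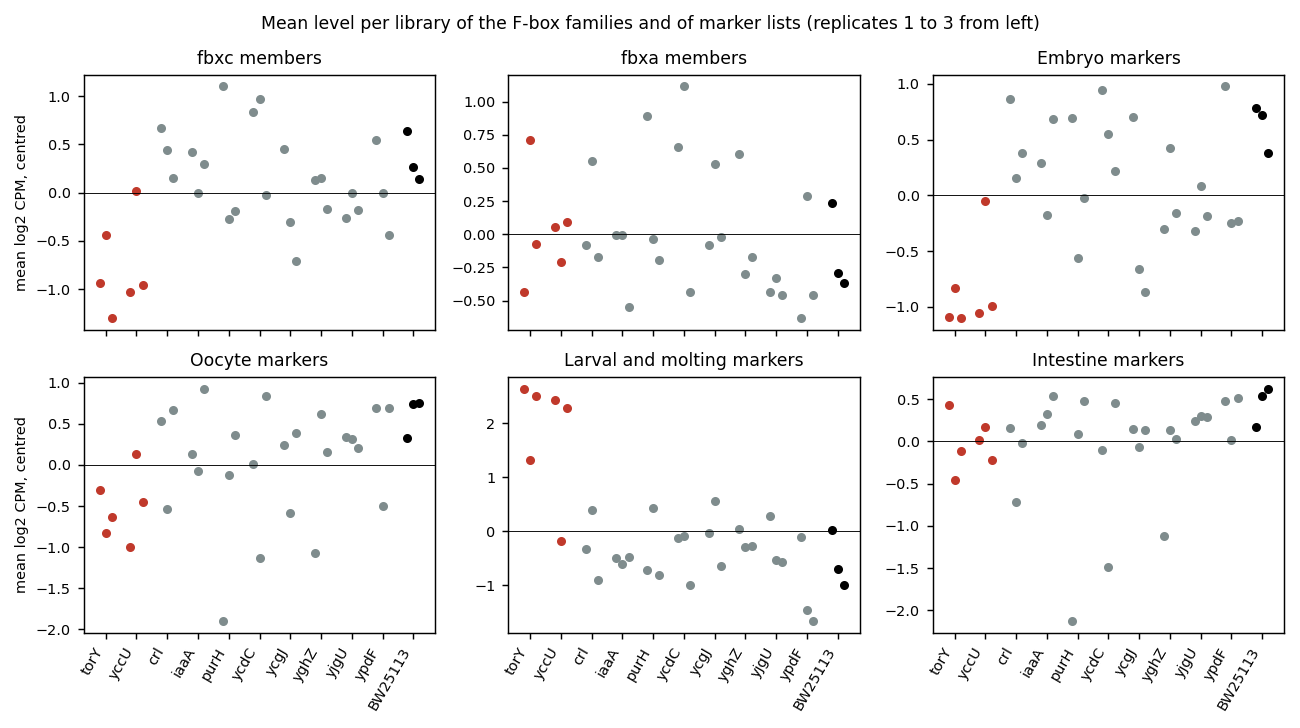
Mean log2 CPM per library, centred on the mean of 33 libraries (vertical axes), of fbxc members, fbxa members and 4 marker lists in the 11 diets (horizontal axes; torY and yccU in red, BW25113 in black). The 3 torY libraries lie below the 3 BW25113 libraries for fbxc members and embryo markers and above them for larval and molting markers.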

How the data were processed

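For each library the authors deposited expected counts and TPM per gene symbol, per the file headers. The submitters' processing notes name HISAT, StringTie and Bowtie2, and WBcel235 as the genome. Which tool counted, how it split shared reads and whether libraries were stranded is not given in the sources used here. Groups came from the sample titles. Symbols were matched to Ensembl release 115 of WBcel235 (144 members) or to RefSeq of the same assembly (3 members). The members and the gene lists were chosen with earlier results of these data known.

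Expected counts were rounded to whole numbers and fitted for all 33 libraries together by diet in edgeR 4.0.16 (R 4.3.3) with TMM factors (0.661 to 1.90) and the quasi-likelihood test. The filterByExpr step kept 14696 genes. A gene was called when its adjusted p (Benjamini-Hochberg, all tested genes) was under 0.05. CPM uses TMM-scaled library sizes per 1e6 counts. The biological coefficient of variation was 44.5%, with 22 residual degrees of freedom. Alternatives were other scaling factors, other filters, 6 libraries alone, a replicate block, a molting covariate, limma 3.58.1 on log2(TPM + 0.5), DESeq2 1.42.0, and each library left out.

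Named members are all called fbxc genes, up to 12 called fbxa genes per comparison, the 10 lowest p in the F test, the 6 highest TPM, the lowest p in comparisons with no calls, and the 2 genes of the pathogen response. A planned rule on protein identity was not used here, and no sequences are printed. Non-members are named from the lists, when called, except skr-1, cul-6 and med-1, chosen after their values were seen.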

Additional observations from a re-analysis of the deposited data

Results flagged for a closer look

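Each case below was picked out among the named members because all 3 libraries of 1 diet lay above, and all 3 of another below, all 3 BW25113 libraries. Some members not named here met the same rule and are not listed. The difference was not tested in any of the listed cases, and the diets share the same controls. For fbxc-32 the ycdC value lay 1.93 log2 units above the torY value (0.70 in ycdC and -1.22 in torY, both against BW25113). For fbxa-170 crl lay above and torY, yccU and yjgU below BW25113, with gaps of 1.56, 1.14 and 0.80 log2 units. The same gene in ycdC lay above those 3 diets by 1.61, 1.197 and 0.85 log2 units. In crl and ycdC its log2 fold changes were 0.27 and 0.32, neither of which passed the test.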

How the results depend on the processing

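In torY the count of 16 called members became 25 with the replicate block, 25 by DESeq2, 8 by limma on TPM and 0 with the molting covariate. Over all genes the shares called were 18.2%, 17.9%, 10.5% and 0%, against 14.9% in the main fit. The member count was 16, 15, 13, 16 and 18 with RLE factors, upper quartile factors, no filter, a stricter filter and 6 libraries alone. The shares of all genes there were 15.2%, 17.1%, 9.16%, 17.1% and 29.5%. Leaving out 1 library gave 0 to 16 calls. In yccU the count of 0 became 1 with upper quartile factors, 7 with the replicate block, 3 with 6 libraries alone, 3 by limma and 9 by DESeq2. Over all genes the shares called there were 5.96%, 7.95%, 13%, 3.49% and 9.64%. With 1 library left out the yccU count was 0 to 23, where 23 came without yccU replicate 2 (14.5% of all genes). For the other 8 mutants the member count was 1, in yjgU, with 6 libraries alone (4.44% of all genes there). It was 0 in every other setting, 0 to 0 with 1 library left out. The F test gave 2 with the replicate block (4.87% of all genes), 20 by DESeq2 (12.4%) and 0 to 9 with 1 library left out. It gave 9 without yccU replicate 2 (6.65%), 5 without purH replicate 2 (6.19%) and 3 without purH replicate 1 (4.89%). The comparison of torY with yccU had 0 calls in every setting, 0 to 0 with 1 library left out. Causes of these shifts were not tested.

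Across the 375 repeats of single named members, 267 kept their side of the threshold, 4 gained a call and 0 changed sign, and the rest, all in torY, lost it (128 of 232 there kept it). The fbxc median in torY was -1.81 to -0.63 over the settings and -1.76 to -1.39 with 1 library left out, while the fbxa median was -0.15 without torY replicate 2, against 0.24 with all libraries. In yccU the fbxa median was -0.16 with the stricter filter and -0.12 with the covariate. Upper quartile factors moved the median of all genes to 0.29 in torY. The labels do not say that a replicate number marks a shared batch. Same-numbered libraries correlated in their deviations with a median of 0.10 (-0.74 to 0.75), against -0.05 for differently numbered ones (-0.80 to 0.80). Deviations were taken from the mean of each diet, so these medians are not independent of each other. Of 33 libraries, 20 correlated best with their own number among the 3, with no chance level computed. This is at most a hint of pairing from the data, not from the design. The 6 libraries fitted alone had no other diets to share an estimate of spread with. Low counts limit the scarce members, for which falls of genes at 0 or 1 count are known only roughly.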
